A study of Homo sapiens with 6 samples.

Results

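The 9 laminin chain genes LAMA1, LAMA2, LAMA3, LAMA4, LAMA5, LAMB1, LAMB2, LAMB3 and LAMC1 were taken by gene symbol from the 19960 gene rows of the deposited expression table, which held each of them once. Laminins are large secreted glycoproteins of the basement membrane, each built from an alpha, a beta and a gamma chain that wind into a coiled coil inside the cell and leave it as a cross-shaped trimer. A trimer is named after its chains, so that laminin-511 holds the products of LAMA5, LAMB1 and LAMC1. The free ends of the alpha chain bind integrins and dystroglycan on the epithelial cell, and short arms of all chain types join trimers into the sheet on which collagen IV, nidogens and perlecan assemble.

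RNA was sequenced from MKN28, an established human gastric adenocarcinoma line, in 3 libraries from stable cells carrying a short hairpin RNA plasmid against LTBP1 (shLTBP1) and 3 libraries from stable cells carrying a scrambled control plasmid (shSCR). The LTBP1 protein holds latent TGF-beta in the matrix around cells. Set side by side, the groups show how expression differs between these stable lines. Depletion of LTBP1 and any other difference between the lines cannot be told apart here. Both groups were grown in the same serum-containing medium, and both are plasmid-bearing stable lines. The labels give neither the number of hairpin sequences or clones behind a line nor the cultures from which the 3 libraries of each were made, so that the spread behind every p-value may be technical.

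The deposited values are normalized read counts, which sum to between 30479879 and 30941103 per library and therefore no longer show the sequenced depth. LTBP1 stood at 59.0, 66.7 and 49.0 normalized counts in the shLTBP1 libraries, against 977, 964 and 1011 in the shSCR libraries (log2 fold change -4.07, limma adjusted p = 1.18e-08). Subtracting the median of its neighbours on chromosome 2, up to 25 on each side, in every library gave a log2 fold change of -3.48. The median of these neighbours was therefore lower in shLTBP1 as well, and the cause was not tested. The 8 epithelial markers examined (EPCAM, CDH1, KRT8, KRT18, KRT19, CLDN4, CLDN7 and ELF3) were all detected, with summed normalized counts of 301436 to 325669 in shLTBP1 and 336180 to 356807 in shSCR, most of it KRT8 and KRT18. Single markers moved in both directions: EPCAM averaged 9981 ± 465.7 in shLTBP1 and 21679 ± 971.7 in shSCR, and ELF3 2977 ± 73.6 in shLTBP1 and 1557 ± 34.4 in shSCR (SD, n = 3 each). Markers of other cell types that make laminin were also summed. The 7 endothelial markers summed to 23.9 to 33.0 in shLTBP1 and 35.6 to 52.1 in shSCR with CLDN5 and ERG at 0 throughout, and the 5 smooth muscle markers to 28.8 to 44.3 in shLTBP1 and 32.6 to 47.2 in shSCR with MYOCD at 0 throughout. Of 9 fibroblast markers, which summed to 710.2 to 937.4 in shLTBP1 and 1108 to 1348 in shSCR, COL1A1 gave nearly all; THY1 was at 0 throughout, and LUM had 41.5, 52.0 and 36.6 in shLTBP1 and 0 in each shSCR library. The 5 neural and Schwann cell markers summed to 640.6 to 729.5 in shLTBP1 and 232 to 253.8 in shSCR, nearly all of it SNAP25, with SOX10 and ELAVL4 at 0 throughout. One library stood apart on the globins HBA1 and HBB. HBA1 had 803.4 normalized counts in shSCR replicate 3 and at most 12.0 in any other library. HBB had 132.2 in shSCR replicate 3 and 0 in every other library, whereas HBA2, another globin, had 0 in shSCR replicate 3. The 6 blood markers, which include HBA1 and HBB, summed to 17.8 to 23.4 in shLTBP1 and 3.89 to 940.5 in shSCR. The part of these markers in the laminin differences was not tested, and values without shSCR replicate 3 are given where they bear on a call.

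The alpha chain genes LAMA1 and LAMA2 fell most in shLTBP1 cells, the alpha chain gene LAMA5 and the gamma chain gene LAMC1 fell by less, and of the beta chain genes LAMB2 fell narrowly while LAMB1 and LAMB3 did not pass. Of the 9 genes examined, 8 had a mean of at least 10 normalized counts over the 6 libraries and were tested. LAMA1, LAMA2, LAMA5, LAMC1 and LAMB2 fell (5 of 8, 62.5%), none rose, and LAMA3, LAMB1 and LAMB3 did not pass a limma adjusted p of 0.05. Among all 12789 tested genes, 26.8% were called lower, 26.3% higher and 53.1% in either direction. At an unadjusted limma p under 0.05 the counts among the laminin genes were likewise 5 lower and 0 higher. The median log2 fold change of the 8 tested laminin genes was -0.27, beside 0.00 over all tested genes. Values of the 3 shLTBP1 and the 3 shSCR libraries did not overlap, with shLTBP1 lower, for the same 5 genes, as for 30.6% of all tested genes; with LAMB1, which was higher, groups were apart in either direction for 6 of the 8, as for 60.8% of all tested genes. In bulk RNA, fewer cells that express a chain and less of its RNA per cell cannot be told apart.

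**Figure D1:**
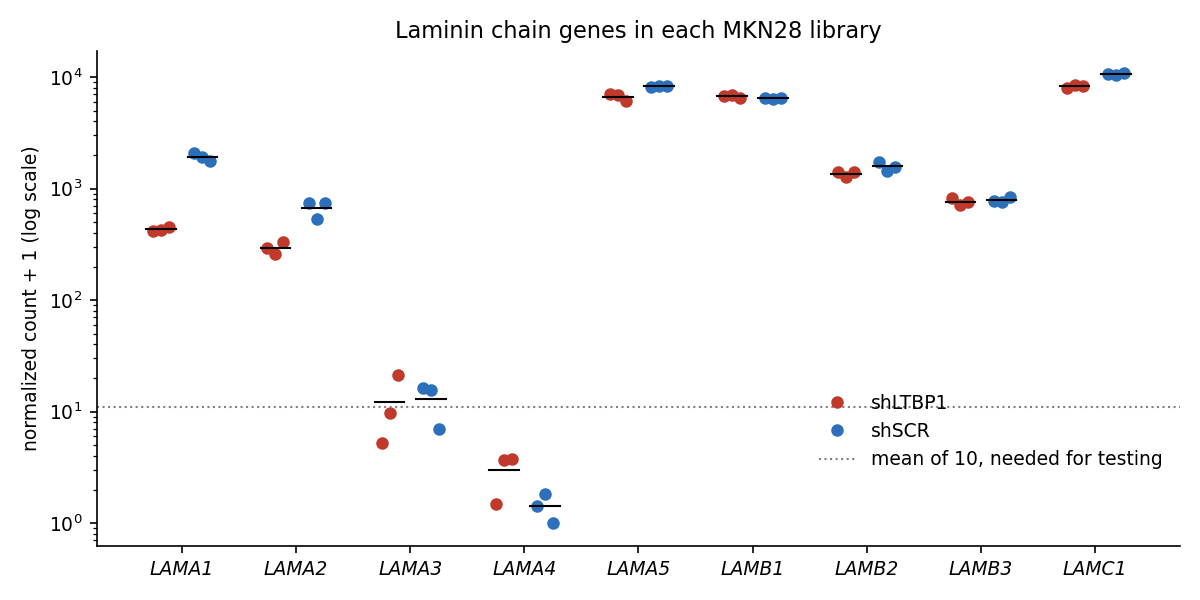
Normalized count plus 1 on a log scale for each of the 9 laminin chain genes, with the 3 shLTBP1 libraries as red points, the 3 shSCR libraries as blue points, the mean of each group as a black line and the mean of 10 needed for testing as a dotted line. LAMA1 lies near 430 in shLTBP1 and between 1760 and 2084 in shSCR, while LAMA3 and LAMA4 lie at or below about 20 in every library.

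Among alpha chain genes, LAMA1 fell most. LAMA1 (ENSG00000101680, minus strand, chr18:6941744-7117814 in hg38) encodes the alpha chain of laminin-111, the trimer of early embryonic basement membranes. It had 411.4, 424.3 and 452.3 normalized counts in the shLTBP1 libraries, against 2084, 1916 and 1760 in the shSCR libraries. The groups lay far apart, with means of 429.3 ± 20.9 in shLTBP1 and 1920 ± 161.9 in shSCR (SD, n = 3 each), so that shLTBP1 held 22.4% of the shSCR level. Taken on log2(value + 1), as all fold changes below, the difference was -2.16 ± 0.08 (standard error, 95% interval -2.33 to -1.98, limma adjusted p = 3.42e-08). Of the 12789 tested genes, 73 had a lower log2 fold change, whether or not they passed. Permuting the LAMA1 values exactly gave a two-sided p of 0.1, the smallest that 3 against 3 libraries allow.

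LAMA2 (ENSG00000196569, plus strand, chr6:128883141-129516569) encodes the alpha chain of laminin-211, best known from the sheath of muscle fibres and Schwann cells. It had 292.5, 259.9 and 328.8 normalized counts in shLTBP1, against 744.3, 535.6 and 742.6 in shSCR. The groups were apart although shSCR replicate 2 was lower than its 2 companions. LAMA2 reached 43.6% of the shSCR mean in shLTBP1, with a log2 fold change of -1.19 ± 0.14 (standard error, limma adjusted p = 7.03e-05). LAMA1 and LAMA2 were the 2 laminin genes that fell at least 2-fold, a class that held 4.39% of tested genes.

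LAMA5 (ENSG00000130702, minus strand, chr20:62307955-62367312) encodes the alpha chain of laminin-511 and laminin-521, the commonest in adult epithelial basement membranes. It had 7060, 6873 and 6088 normalized counts in shLTBP1, against 8091, 8376 and 8245 in shSCR. All shLTBP1 libraries were below all shSCR libraries, but by a small margin relative to LAMA1. The mean of 6674 ± 515.7 in shLTBP1 and 8237 ± 143 in shSCR (SD, n = 3 each) differed by a log2 fold change of -0.31 in limma (adjusted p = 0.00151).

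The other alpha chain genes were at the edge of detection. LAMA3 (chr18:23689443-23956222) encodes the alpha chain of laminin-332, which anchors epithelial cells through hemidesmosomes. It had 4.25, 8.73 and 20.3 normalized counts in shLTBP1, against 15.3, 14.5 and 5.97 in shSCR. These ranges overlapped widely, and the interval of the log2 fold change, -1.55 to 1.09, leaves more than a 2-fold difference possible either way (limma adjusted p = 0.761). LAMA4 (chr6:112108760-112254939), the alpha chain gene of laminin-411 of blood vessel walls, was not tested in the fit across genes. Its values were 0.492, 2.72 and 2.79 in shLTBP1 and 0.429, 0.845 and 0 in shSCR (exact two-sided permutation p = 0.2, n = 3 each).

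The beta chain genes changed little. LAMB1 (ENSG00000091136, minus strand, chr7:107923799-108003255), which encodes the beta chain of laminin-111, laminin-211 and laminin-511, had 6697, 6899 and 6545 normalized counts in shLTBP1, against 6449, 6353 and 6524 in shSCR. Every shLTBP1 library was above every shSCR library. The difference did not pass (log2 fold change 0.06, 95% interval -0.03 to 0.15, limma adjusted p = 0.257). LAMB1 was thus the tested laminin gene with a fold change above 0.

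LAMB2 (minus strand, chr3:49121114-49133118) encodes the beta chain found at the neuromuscular junction and in the kidney glomerulus. It had 1400, 1259 and 1419 normalized counts in shLTBP1, against 1739, 1440 and 1558 in shSCR. The highest shLTBP1 value lay just under the lowest shSCR value, and LAMB2 passed narrowly at -0.21 on the log2 scale (limma adjusted p = 0.0452). The call was lost without shLTBP1 replicate 1 or 2 (limma adjusted p = 0.0661 and 0.123) and without shSCR replicate 1 or 3 (limma adjusted p = 0.174 and 0.0878). Leaving out 1 library in turn placed the LAMB2 log2 fold change between -0.28 and -0.14.

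LAMB3 (minus strand, chr1:209614870-209652466), the beta chain gene of laminin-332, had 824.8, 711.4 and 757 normalized counts in shLTBP1 and 780.3, 764.1 and 841.2 in shSCR. The groups overlapped and the log2 fold change was -0.06 with a 95% interval of -0.23 to 0.11 (limma adjusted p = 0.546). With neighbouring genes subtracted the sign turned, to 0.08.

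LAMC1, a gamma chain gene, fell in every shLTBP1 library. It is located on the plus strand at chr1:183023460-183145592 (ENSG00000135862) and encodes the gamma chain shared by most laminin trimers. It had 7990, 8469 and 8354 normalized counts in shLTBP1, against 10606, 10434 and 10818 in shSCR. The groups lay well apart, with little spread inside either. The shLTBP1 mean was 77.9% of the shSCR mean, and the log2 fold change was -0.36 with a 95% interval of -0.45 to -0.27 (limma adjusted p = 6.54e-05). Of other chain genes, LAMC3 had at most 3.92 normalized counts in any library and LAMB4 was at 0 except for 10.0 in shLTBP1 replicate 3.

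**Figure D2:**
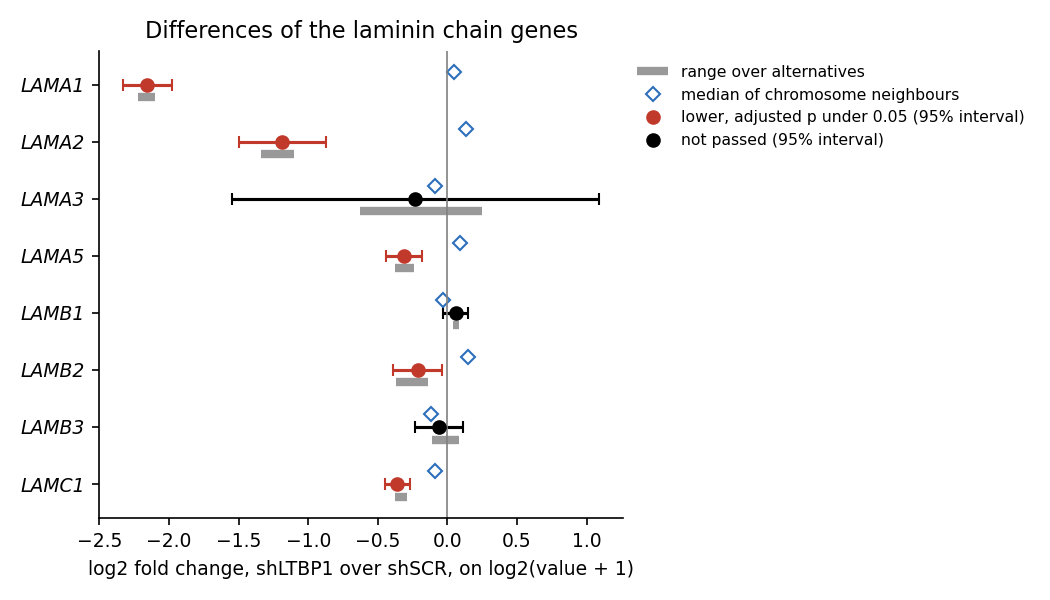
Log2 fold change of shLTBP1 over shSCR for the 8 tested laminin chain genes, with limma 95% intervals; red points fell with an adjusted p under 0.05 and black points did not pass. Grey bars give the range over all alternative settings and open diamonds the median log2 fold change of the tested genes that neighbour each gene on its chromosome, which stayed between -0.12 and 0.15 while LAMA1 stood at -2.16 and LAMA2 at -1.19.

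Levels of different chains were compared as normalized count per kb of exonic length, since a long gene collects more reads. LAMC1 was highest, at 984 ± 29.8 per kb in shLTBP1 and 1263 ± 22.9 in shSCR (SD, n = 3 each). LAMB1 followed, at 824.8 ± 21.8 in shLTBP1 and 791.4 ± 10.5 in shSCR, and then LAMA5, at 467 ± 36.1 in shLTBP1 and 576.4 ± 10.0 in shSCR. The chains of laminin-511 were therefore the 3 highest laminin RNAs per kb in both groups. Below them came LAMB2 (198 ± 12.8 per kb in shLTBP1, 230 ± 21.9 in shSCR) and LAMB3 (163.1 ± 12.2 in shLTBP1, 169.6 ± 8.67 in shSCR).

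The order of the lower alpha chains was not the same in both groups. LAMA1 stood at 27.0 ± 1.32 per kb in shLTBP1 and 121 ± 10.2 in shSCR, and LAMA2 at 28.4 ± 3.33 in shLTBP1 and 65.1 ± 11.6 in shSCR. In shLTBP1 the LAMA1 and LAMA2 ranges overlapped, while in shSCR LAMA1 was above LAMA2 in every library; with the longest transcript as length, LAMA1 was above LAMA2 in both groups. By exonic length, all other neighbours in the order had ranges apart. LAMA3 was at 0.756 ± 0.565 per kb in shLTBP1 and 0.813 ± 0.353 in shSCR, and LAMA4 at 0.173 ± 0.113 in shLTBP1 and 0.0367 ± 0.0365 in shSCR. Of the laminin-332 chains, the level of LAMA3 per kb was thus far below that of LAMB3. With the longest transcript as length, LAMB1 rather than LAMC1 was highest in shLTBP1 (1164 against 1048 per kb), and LAMA1 lay beside LAMB3 in shSCR (185.1 and 184.7 per kb).

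The makeup of alpha chain RNA moved toward LAMA5. LAMA5 made up 90.1%, 90.1% and 87.3% of the alpha chain level per kb in the shLTBP1 libraries, against 73.5%, 77.2% and 75.9% in the shSCR libraries. The share of LAMA1 was 4.73%, 5.01% and 5.84% in shLTBP1 and 17.0%, 15.9% and 14.6% in shSCR. These shares sum to 100% within a library, so a larger LAMA5 share here goes with a lower LAMA5 level, because LAMA1 and LAMA2 were lower by more. The summed alpha chain level was 548.5, 533.6 and 487.9 per kb in shLTBP1 and 770.4, 759.6 and 760 in shSCR.

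LAMC1 and the sum of the beta chains differed in how the groups compared. The summed beta chain level was 1203, 1183 and 1172 per kb in shLTBP1 and 1212, 1153 and 1208 in shSCR, so that the groups overlapped. The LAMC1 level was 950.5, 1008 and 993.9 per kb in shLTBP1 and 1262, 1241 and 1287 in shSCR, with no overlap. The ratio of LAMC1 to all beta chain RNA per kb was 0.790, 0.852 and 0.848 in shLTBP1, against 1.04, 1.08 and 1.07 in shSCR. With the longest transcript as length, that ratio was 0.633, 0.678 and 0.678 in shLTBP1 and 0.837, 0.863 and 0.856 in shSCR. The ratio of LAMB1 to LAMC1 was 0.866, 0.841 and 0.809 in shLTBP1, against 0.628, 0.629 and 0.623 in shSCR. By longest transcript it was 1.15, 1.11 and 1.07 in shLTBP1 and 0.832, 0.833 and 0.825 in shSCR. The ratio of all beta to all alpha chain RNA was 2.19, 2.22 and 2.40 in shLTBP1, against 1.57, 1.52 and 1.59 in shSCR. These sums and ratios combine the genes described above and were not tested.

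**Figure D3:**
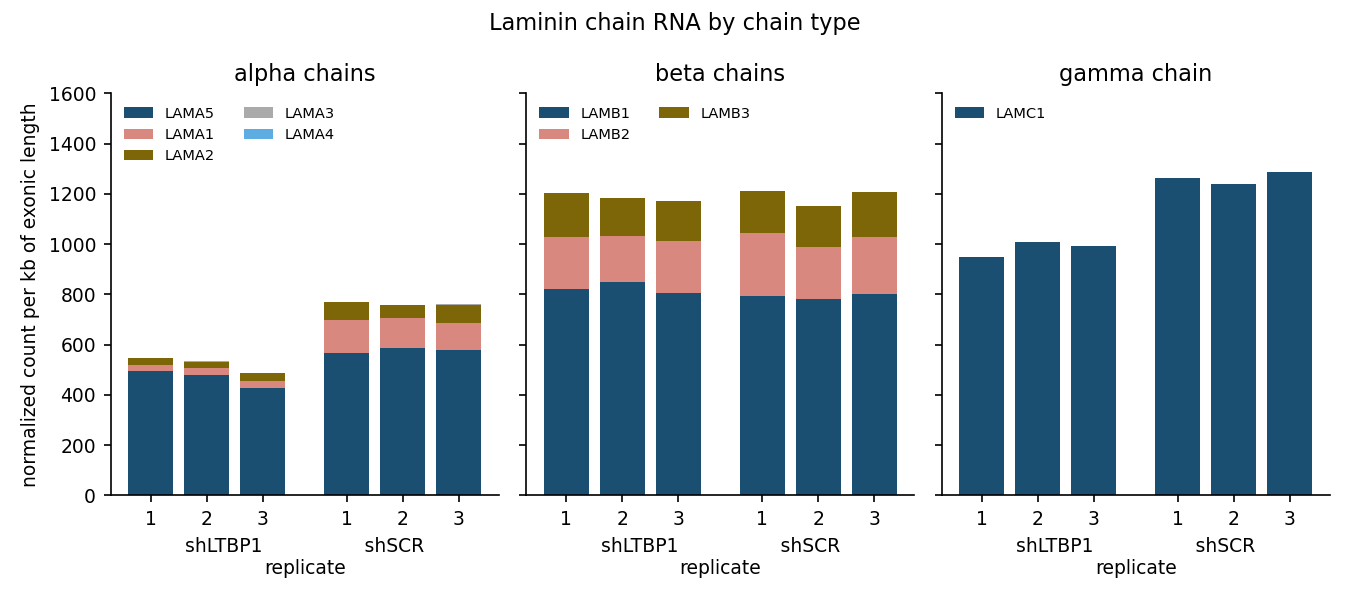
Normalized count per kb of exonic length, stacked by gene, for the alpha chains, the beta chains and LAMC1 in each library (shLTBP1 replicates 1 to 3 left, shSCR replicates 1 to 3 right). Alpha sums reach 488 to 549 in shLTBP1 and 760 to 770 in shSCR, LAMC1 950.5 to 1008 in shLTBP1 and 1241 to 1287 in shSCR, and beta sums overlap.

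The laminin genes lie on chromosomes 1, 3, 6, 7, 18 and 20, none of them on the chromosome of LTBP1, and the falls of LAMA1 and LAMA2 were larger than those of nearly all their neighbours. Of the 41 tested genes nearest LAMA1 on chromosome 18, up to 25 on each side, the median log2 fold change was 0.05 and none was below LAMA1; the lowest, EPB41L3, stood at -1.57. LAMA3, on the same chromosome 16.6 Mb away, had neighbours with a median of -0.09. Around LAMA2 the median of 50 neighbours was 0.13 and 2 lay below it, and around LAMA5 it was 0.09 with 4 below. Around LAMC1 the median was -0.09, and 15 of 50 neighbours lay below it. With the median of the neighbours subtracted in every library, LAMA1 was at -2.17, LAMA2 at -1.26, LAMA5 at -0.38, LAMB2 at -0.37 and LAMC1 at -0.29, with limma adjusted p-values of 2.85e-08, 3.67e-05, 0.000271, 0.00457 and 0.000598. In that fit 24.7% of all genes were called lower.

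**Figure D4:**
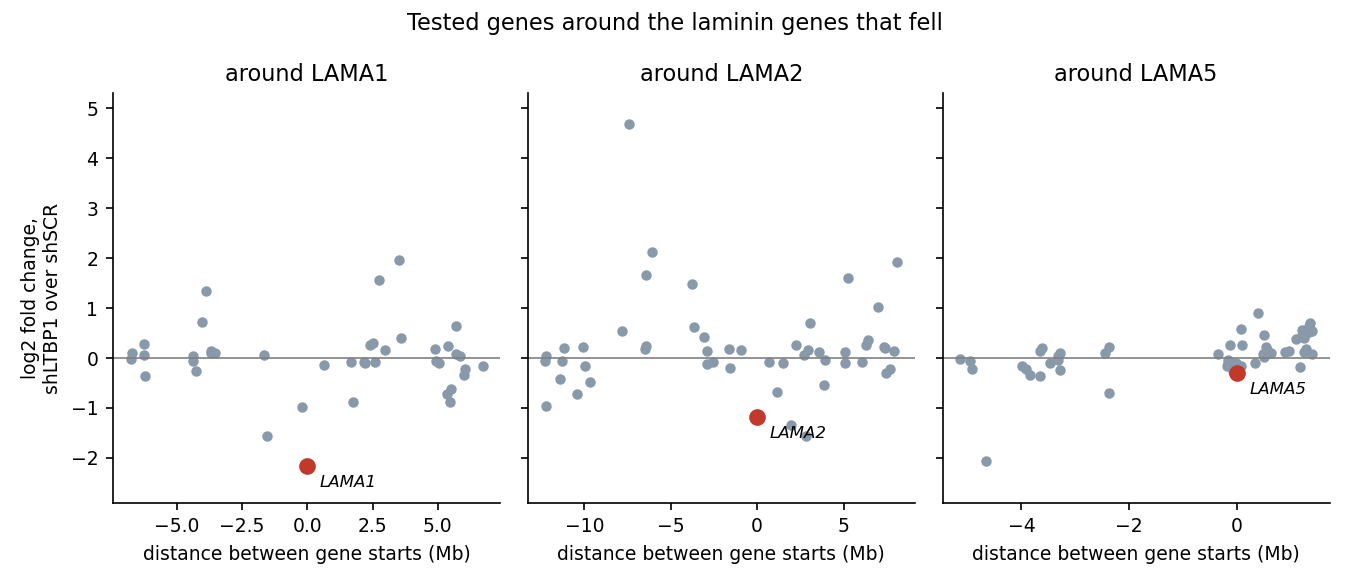
Log2 fold change of shLTBP1 over shSCR for tested genes around LAMA1, LAMA2 and LAMA5, against the distance in Mb between the leftmost coordinates of each gene and the named gene; red points are laminin genes and grey points their neighbours. LAMA1, at -2.16, lies below all 41 neighbours, whereas 2 of the 50 neighbours of LAMA2 and 4 of the 50 of LAMA5 lie below it.

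Some laminin genes overlap genes on the opposite strand, taken from gene start to gene end with introns included. In the annotation, LAMA5 overlaps ADRM1 and LAMB1 overlaps DLD, and the strand setting of the counting is not given in the sources used here. ADRM1 stood at -0.10 on the log2 scale (limma adjusted p = 0.277) and DLD at -0.09 (limma adjusted p = 0.229), neither past the threshold. LAMA1, LAMA2, LAMA4, LAMA5, LAMB1 and LAMC1 also overlap antisense genes of the annotation, which were not analysed here. Whether exons of such pairs overlap was not examined. Reads from any exonic stretch they share cannot be told apart without strand.

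Promoter sequences are shown for the 3 chains of laminin-511, which had the highest levels, and for LAMA2, which fell at least 2-fold. They are the 250 bases before the RefSeq start on GRCh38.p14, in the direction of the gene; 8 of the 9 genes had a window in that table, and LAMA1 did not. Capitals mark the GC box, GGGCGG or its reverse complement CCGCCC, to which SP1 and related factors bind.
LAMA5, minus strand, chr20:62367313-62367562: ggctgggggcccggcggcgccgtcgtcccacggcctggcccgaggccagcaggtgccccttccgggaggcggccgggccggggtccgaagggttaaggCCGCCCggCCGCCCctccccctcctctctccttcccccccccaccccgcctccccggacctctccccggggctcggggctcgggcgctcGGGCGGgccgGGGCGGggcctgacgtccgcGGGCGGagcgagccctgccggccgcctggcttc
LAMB1, minus strand, chr7:108003162-108003411: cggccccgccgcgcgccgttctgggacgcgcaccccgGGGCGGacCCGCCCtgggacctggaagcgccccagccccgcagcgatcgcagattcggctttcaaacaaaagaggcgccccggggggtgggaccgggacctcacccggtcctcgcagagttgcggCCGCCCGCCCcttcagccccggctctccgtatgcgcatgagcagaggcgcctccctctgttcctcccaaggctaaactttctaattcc
LAMC1, plus strand, chr1:183023170-183023419: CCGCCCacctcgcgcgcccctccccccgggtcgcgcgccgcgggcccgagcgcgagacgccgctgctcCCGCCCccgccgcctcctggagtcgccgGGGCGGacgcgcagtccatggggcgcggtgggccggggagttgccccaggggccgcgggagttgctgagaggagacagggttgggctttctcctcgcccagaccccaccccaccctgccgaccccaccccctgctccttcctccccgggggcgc
LAMA2, plus strand, chr6:128882888-128883137: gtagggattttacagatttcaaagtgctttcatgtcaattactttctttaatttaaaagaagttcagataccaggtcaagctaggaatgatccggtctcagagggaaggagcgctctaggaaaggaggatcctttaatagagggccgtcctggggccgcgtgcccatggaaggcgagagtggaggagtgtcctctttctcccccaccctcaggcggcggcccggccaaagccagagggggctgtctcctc

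The windows of LAMA5, LAMB1 and LAMC1 held 5, 4 and 3 GC boxes, overlapping matches counted, and 32, 28 and 32 CpG dinucleotides. The LAMA2 window held no GC box and 9 CpG dinucleotides. LAMA4 was the other gene with no GC box in its window. A GC box was found in 42.6% of 35114 windows of the same length, and the median window held 11 CpG. The AP-1 motif TGANTCA, on either strand, was in the windows of LAMA3 and of 1 of the 3 LAMB3 starts, and in 6.57% of all windows. The LAMA3 window, chr18:23872770-23873019, lies inside that gene, and the outermost LAMA3 start was not searched. Inside their annotated genes also lie the LAMA4 window, chr6:112254568-112254817, and the LAMB3 window with the AP-1 match, chr1:209651375-209651624. The SMAD motif CAGACA or TGTCTG was in the windows of LAMA3 and LAMA4, and in 13.6% of all windows. The TEAD motif GGAATG or CATTCC was in the window of LAMA2 alone among these genes, and in 11.9% of all windows. The E-box CANNTG was in the windows of LAMA3, LAMA5 and all 3 LAMB3 starts, and in 61.8% of all windows. These matches are letters in a window, and binding was not measured.

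The profile of LAMA1 over the 6 libraries, centred on its mean, was compared with those of 10789 other tested genes of mean at least 100 normalized counts. The smallest Euclidean distances on the log2 scale were those of PTK7, a receptor-like pseudokinase of planar cell polarity (0.166), CRMP1, a collapsin response mediator (0.208), and ABAT, the GABA transaminase (0.245). PTK7 had 1289, 1374 and 1449 normalized counts in shLTBP1 and 5988, 5973 and 5890 in shSCR. With 2 groups and 3 libraries in each, a small distance says mainly that the fold changes are alike, and those of PTK7, CRMP1 and ABAT were -2.12, -2.24 and -2.20.

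Receptors of laminin moved in both directions. All 10 genes of the list were tested: 5 fell, 3 rose and 2 did not pass, beside 26.8% lower and 26.3% higher among all tested genes, and their median was -0.24 on the log2 scale. The integrin chain ITGA6, which pairs with ITGB1 or ITGB4 to bind laminins, had 3222, 2974 and 3372 normalized counts in shLTBP1 and 8818, 8397 and 8566 in shSCR. Its log2 fold change was -1.43, or -0.94 with the median of its neighbours on chromosome 2 subtracted. ITGA2, which pairs with ITGB1 in a receptor for collagen and laminin, fell by 1.31, ITGB4 by 0.51, ITGB1 by 0.44 and ITGA3, a chain of the main receptor for laminin-332 and laminin-511, by 0.33 on the log2 scale. Of the receptors that are not integrins, BCAM, the Lutheran receptor for the LAMA5 chain, rose by 0.32 and DAG1, dystroglycan, by 0.29, or 0.16 with its neighbours subtracted (limma adjusted p = 0.0453). The third that rose, ITGA1, averaged 32.4 ± 11.6 in shLTBP1 and 15.3 ± 9.15 in shSCR (SD, n = 3 each). Its call was narrow (limma adjusted p = 0.0483) and was lost without any 1 of shLTBP1 replicates 1, 2 and 3 or shSCR replicates 1 and 3 (limma adjusted p = 0.0529 to 0.166). The ITGA1 call was also lost without the filter on low values (limma adjusted p = 0.0608) and with quantile normalization (0.0562). The same held without the variance trend (0.0746) and with neighbours subtracted (0.0519). The tetraspanin CD151, an integrin partner, did not pass (log2 fold change -0.09), though it did with its neighbours subtracted (-0.40).

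The hemidesmosome list, which shares ITGA6, ITGB4 and CD151 with the receptors, had 4 genes that fell, 1 that rose and 3 that did not pass among 8 tested (median -0.28), beside 26.8% lower and 26.3% higher among all tested genes. DST, whose epithelial product BPAG1 ties keratin to the hemidesmosome, had 1493, 1413 and 1293 normalized counts in shLTBP1 and 3355, 3643 and 3688 in shSCR (log2 fold change -1.35, limma adjusted p = 2.47e-07). These values are per gene and do not tell the 35 annotated DST transcripts apart, so the epithelial form was not measured by itself. COL17A1, the transmembrane collagen of the hemidesmosome, fell by 0.38. KRT5, a keratin of basal epithelial cells, was the gene that rose; it had 8345, 8209 and 7782 in shLTBP1 and 2209, 2253 and 2255 in shSCR (log2 fold change 1.86).

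Many of the usual basement membrane partners were hardly expressed. Of 15 genes, 6 could be tested; 4 of these fell, none rose and 2 did not pass (median -0.57), beside 26.8% lower and 26.3% higher among all tested genes. At an unadjusted p under 0.05 none was higher in limma either. NID1, NID2, COL4A1, COL4A2, COL4A3, COL4A4, COL4A6, COL15A1 and SPARC were below the filter. The nidogens NID1 and NID2, which link laminin to collagen IV, averaged 0.690 ± 0.599 and 0 in shLTBP1 and 0.632 ± 0.548 and 0.303 ± 0.524 in shSCR (SD, n = 3 each). COL18A1, the collagen that yields endostatin, averaged 5552 ± 541.7 in shLTBP1 and 10121 ± 544.1 in shSCR (SD, n = 3 each), a log2 fold change of -0.87, or -0.41 with its neighbours on chromosome 21 subtracted. AGRN, agrin, which binds the coiled coil of laminin, fell by 0.26. HSPG2, perlecan, did not pass (0.06, and -0.02 with neighbours subtracted). The low-expressed COL4A5 and the peroxidase PXDN fell, with log2 fold changes of -1.89 and -1.85, but PXDN lost its call without shLTBP1 replicate 2 (log2 fold change -0.99, limma adjusted p = 0.0702), shSCR replicate 2 (-1.45, 0.138) or shSCR replicate 3 (-1.93, 0.0725), with its neighbours subtracted (-1.36, 0.109), without the filter on low values (0.0542) and without the variance trend (0.101).

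Proteases that trim laminin chains moved in both directions. Of 8 listed, 4 were tested: 2 fell, 1 rose and 1 did not pass, beside 53.1% called either way among all tested genes. The membrane collagenase MMP14 had 1136, 1693 and 1457 normalized counts in shLTBP1 and 4547, 4319 and 4646 in shSCR (log2 fold change -1.67). PLAT, which makes plasmin from plasminogen, stood at -2.23, and BMP1, which processes laminin-332, at 1.10. Netrins are secreted proteins with a laminin-like amino-terminal domain, and of 5 listed, 3 were tested. NTN1 had 555.5, 555.9 and 522.6 normalized counts in shLTBP1 and 2258, 2363 and 2348 in shSCR (log2 fold change -2.09, limma adjusted p = 6.99e-09), with little spread inside either group. NTN4, which can bind laminin, averaged 280.7 ± 45.6 in shLTBP1 and 138.4 ± 25.3 in shSCR (SD, n = 3 each). Its log2 fold change was 1.02 (limma adjusted p = 0.000538).

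Enzymes that build the laminin-binding glycan of dystroglycan changed by small amounts. Of 11 examined, all tested, 4 fell, 1 rose and 6 did not pass (median -0.11), beside 26.8% lower and 26.3% higher among all tested genes. POMK, POMGNT2, POMT2 and POMGNT1 fell, with log2 fold changes of -0.39, -0.36, -0.31 and -0.25, and POMT1 rose by 0.25. With neighbouring genes subtracted POMT1 did not pass, at 0.09 (limma adjusted p = 0.294).

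**Figure D5:**
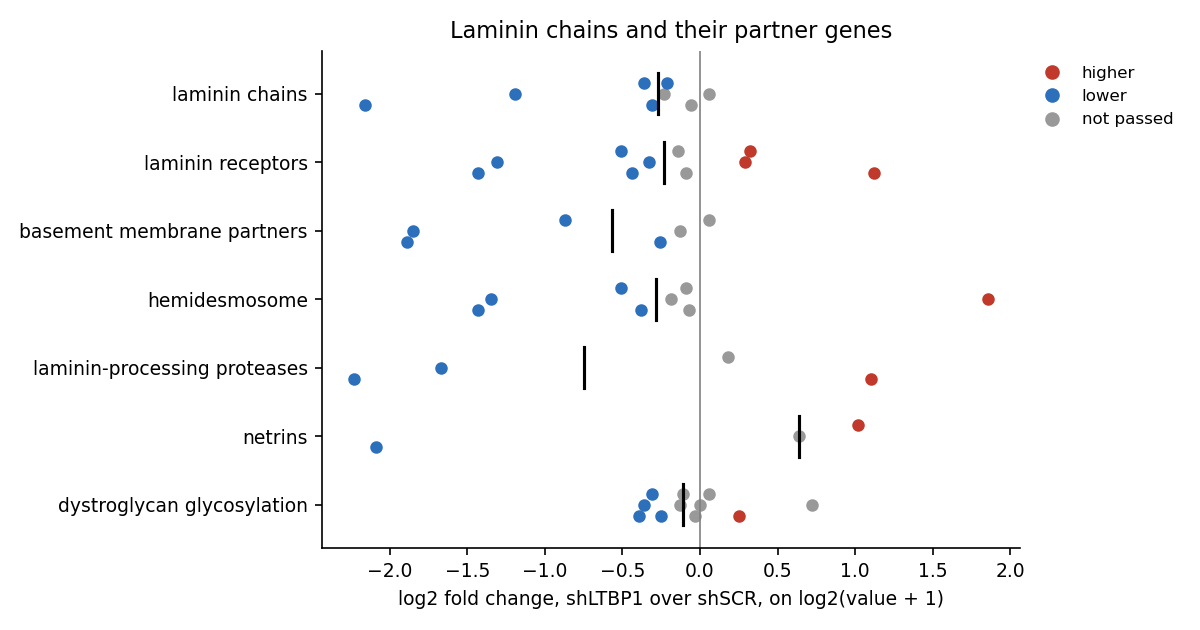
Log2 fold change of shLTBP1 over shSCR for the tested laminin chain genes and for tested genes of 6 lists of laminin partners; red points rose, blue points fell, grey points did not pass a limma adjusted p of 0.05, and black lines mark list medians. LAMA1 at -2.16 stands with PLAT at -2.23 and NTN1 at -2.09 at the low end, and KRT5 at 1.86 at the high end.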

How the data were processed

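The 3 shLTBP1 and 3 shSCR libraries of MKN28 total RNA were grouped by title. The submitters' processing notes name hg38 as genome build and, as tools, DESeq2, RSEM 1.3.1, STAR 2.7.3a and FastQC 0.10.1; annotation, strand setting and filters were not given in the sources used here. Each deposited value is a normalized count signal, which the authors obtained with DESeq2; the values are fractional and were not turned back into reads, so depth is unknown and no count test or counting interval was used. limma 3.58.1 in R 4.3.3 was fitted to log2(value + 1) of the 12789 genes whose mean reached 10, with group as the only term (4 residual and 5.6 prior degrees of freedom, mean-dependent variance trend) and two-sided p-values adjusted by the Benjamini-Hochberg method over all of these genes at 0.05. The pseudocount makes fold changes of low genes smaller.

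Gene positions, exonic lengths (union of exons, or the longest transcript) and overlaps came from GENCODE release 29 on GRCh38, in which 19872 of 19960 identifiers matched; promoters came from RefSeq (GRCh38.p14). The laminin genes and partner lists were chosen with earlier results of these data known. Named from each list were the genes past the threshold with a mean of at least 100, at most 3 each way; ITGA1, ITGA3, ITGB1, CD151, COL4A5, COL17A1, PXDN, HSPG2 and POMGNT1, genes given as not expressed, and the genes that overlap or neighbour laminins were named after their values were seen. No set was tested as a whole. Some genes of the lists are not reported here. Same-numbered libraries did not deviate together (r = -0.00925, 0.0584 and -0.00074 over genes).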

Additional observations from a re-analysis of the deposited data

How the results depend on the processing

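The fit was repeated with a pseudocount of 0.5 or 5, with the filter removed or raised to 50, with upper quartile scaling, quantile normalization, no variance trend, robust moderation, the replicate number as a block, subtraction of the median of 25 neighbours on each side, and leaving out each library. LTBP1, LAMA1, LAMA2, LAMA5 and LAMC1 kept direction and call in all 16; their log2 fold changes ran from -4.17 to -3.48, -2.22 to -2.10, -1.34 to -1.10, -0.38 to -0.24 and -0.38 to -0.29. LAMB2 was no longer called without a filter (-0.21, limma adjusted p = 0.0557), with upper quartile scaling (-0.19, 0.0561), without the variance trend (-0.21, 0.0954) and, with 1 library left out, in 4 of 6 cases (-0.28 to -0.14). The cause was not tested. Uncalled values changed sign for LAMA3 with 1 library left out (-0.63 to 0.25), for LAMB3 (0.08) and HSPG2 (-0.02) with neighbours subtracted. Between 4 and 5 laminin chains were called lower, and 0 higher, throughout. Same-numbered libraries share only a number; with the replicate block 6755 genes were called against 6788, the laminin count stayed at 5, and LAMB2 was at -0.21 (limma adjusted p = 0.0191). With longest transcripts as length, levels per kb were higher for every chain, as that length is shorter than the exon union. Without read counts, counting error cannot be given, and it weighs most on LAMA3 and LAMA4.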
